A study of Mus musculus with 4 samples.

Results

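The fibroblast growth factor (FGF) ligands Fgf1, Fgf2, Fgf7, Fgf9, Fgf10 and Fgf18, the signalling receptors Fgfr1, Fgfr2 and Fgfr3, and the receptor Fgfrl1, which lacks a kinase domain, were described across the cells of the mouse digit before and after amputation through its middle. They are 10 of the 32285 genes in the count matrices, 6 ligands and 4 receptors, and were selected by symbol with their measured UMIs in these same 4 matrices already known, Fgfr1 in macrophages among them. Their levels and differences are therefore descriptions. No level of a member was used to build the cell classes, because these genes and 61 other FGF pathway genes were left out of the clustering.

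FGF ligands are secreted proteins that bind receptor tyrosine kinases on the cell surface together with heparan sulphate, and the activated receptor signals through the adaptor Frs2 to the Ras and MAP kinase cascade. Sprouty, Spred and Dusp proteins are feedback inhibitors of that cascade, and Etv factors are transcriptional targets of it. In skin and limb the stroma is the classical source of Fgf7 and Fgf10, which act on the epithelial splice form of Fgfr2, while stromal cells use mainly Fgfr1 and the mesenchymal form of Fgfr2. The 3' counts used here do not separate splice forms.

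The mice were wild-type FVB/NJ animals, 8 weeks old. The unamputated group was homeostatic tissue of the middle phalanx of the digit (P2). The others were P2 tissue collected 12, 17 and 28 days post amputation (dpa, also written as day 12, 17 and 28). P2 is a level at which the digit does not regenerate and fibroses. Live cells were sorted after enzymatic digestion and profiled with 10x Chromium 3' v3 chemistry. Each group is 1 library, labelled as pooled from male and female animals, with the number of animals not given in the sources used here, so no difference between groups has a replicate check and no p-value is given. Intervals are exact Poisson intervals for UMI sums and exact Clopper-Pearson intervals for shares, both at 95%, and they cover counting error only.

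The libraries held 8813 to 16045 barcodes and 92313847 to 197140774 UMIs (unique molecular identifiers, each counting 1 captured RNA molecule), and 34947 cells were kept, 6510 to 10399 per library, with median depths of 6657 to 11600 UMIs. The 12 dpa library stood apart. Its summed Xist level was 458 CPM (UMIs of a gene scaled to a common total, the usual normalised count) and that of 4 Y-linked genes 0.228 CPM, while the other 3 libraries had at most 0.154 CPM of Xist and 244 to 350 CPM of the Y-linked genes, against labels of pooled sexes in all 4. Every difference between 12 dpa and the unamputated library is therefore also one between a female-like and a male-like library, and day, sex and library cannot be told apart. The 12 dpa library also held 14 osteoblast-like cells, against 220 to 371 in the others, and no B lineage-like cells. No cluster named neutrophil-like had cells at 12 or 28 dpa, but the unnamed cluster 21 (leading genes Acod1, Hcar2, Cxcl2 and Il1b), whose best-scoring class was neutrophil, held 543, 280, 248 and 183 cells in the 4 libraries, so no absence of neutrophils is read. Pairs of libraries shared 12 to 46 kept cell barcodes.

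Cells fell into 30 clusters, of which 28 were named by marker genes into 16 classes. The levels below are CPM of the UMIs summed over the cells of a class in 1 library, for classes with at least 50 cells there. The classes described most are fibroblast-like cells, with 697 cells in the unamputated library and 320, 1794 and 2420 at 12, 17 and 28 dpa, tenocyte-like cells with 990, 1853, 824 and 603, and macrophage-like cells with 726, 445, 972 and 1782. A difference is called when a gene had at least 5 CPM in 1 of the 2 libraries and its log2 ratio, with a pseudocount of 1 CPM, was at least 1 or at most -1, that is 2-fold. The interval printed beside a log2 ratio is that of the ratio of the 2 UMI sums with no pseudocount.

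Fgf7 and Fgf10 are introduced by their promoter windows, because these 2 ligands were both lower in fibroblast-like cells at 28 dpa and had the most similar profiles of any 2 members. Fgf7 lies on chromosome 2 at 126034658 to 126091185 on the plus strand, and Fgf10 on chromosome 13 at 118669791 to 118792115 on the plus strand in the GENCODE M21 annotation of GRCm38. Genes on the other strand overlap both (Fam227b for Fgf7, Gm16263 for Fgf10), as Nudt6 overlaps Fgf2, Arhgap26 overlaps Fgf1 and Gm16159 overlaps Fgfr1, and the strand setting of the counting is not given in the sources used here. The windows run from 250 bases before to 50 bases after the RefSeq start site on GRCm38.p6, and their capitals mark matches on either strand to 5 searched motifs, which were the TATA box spelled TATAAA, the CCAAT box spelled by its name, the GC box spelled GGGCGG, the E-box spelled CANNTG and the AP-1 motif spelled TGANTCA. The window chr2:126034408-126034707 is that of Fgf7 and chr13:118714449-118714748 that of Fgf10, both on the plus strand. The RefSeq start of Fgf10, 118714699, lies inside the GENCODE span that begins at 118669791, so the 2 annotations place its start differently.
Fgf7: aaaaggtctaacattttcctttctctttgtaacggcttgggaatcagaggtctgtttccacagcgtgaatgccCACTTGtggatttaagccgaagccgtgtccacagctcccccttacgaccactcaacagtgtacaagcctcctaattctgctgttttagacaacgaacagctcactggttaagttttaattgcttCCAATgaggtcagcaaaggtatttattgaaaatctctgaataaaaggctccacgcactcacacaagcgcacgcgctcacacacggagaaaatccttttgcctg
Fgf10: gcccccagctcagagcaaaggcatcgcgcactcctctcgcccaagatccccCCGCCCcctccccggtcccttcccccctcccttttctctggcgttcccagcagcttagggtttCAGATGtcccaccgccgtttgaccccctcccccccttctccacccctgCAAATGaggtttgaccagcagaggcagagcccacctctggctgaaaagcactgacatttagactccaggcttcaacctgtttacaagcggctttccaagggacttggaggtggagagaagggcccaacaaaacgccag

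The Fgf7 window had 45.7% G and C, 1 E-box match and 1 CCAAT match. The Fgf10 window had 60.7% G and C, 2 E-box matches and 1 GC box match. No match overlapped another, and neither window held TATAAA or TGANTCA. Among all 32851 windows of the same length, 72.3% held CANNTG, 37.4% CCAAT, 35.7% GGGCGG, 13.6% TATAAA and 7.81% TGANTCA, so the motif that the 2 windows share is one that most windows hold. No binding was measured, and a match is a description of letters.

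Fgf7, a keratinocyte growth factor made by mesenchyme, was a ligand of the stromal classes in all 4 libraries. In fibroblast-like cells it was at 128 CPM in the unamputated library, 99.99 on day 12, 85.3 on day 17 and 52.0 on day 28, from 1699, 416, 1874 and 1252 UMIs. Each later library was lower than the one before it, and the counting interval of the 28 dpa level, 49.2 to 55.0 CPM, lay below those of the other 3. The log2 ratio to the unamputated library was -0.35 on day 12, -0.58 on day 17 and -1.28 (-1.40 to -1.19) on day 28. The 12 dpa value changed sign with a finer clustering (0.11) and in the largest cluster alone (0.09).

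Fgf10, a close relative of Fgf7 that is essential for limb outgrowth, was at 38.6 CPM in unamputated fibroblast-like cells, 12.7 on day 12, 25.5 on day 17 and 10.9 on day 28. The 12 and 28 dpa levels had overlapping counting intervals and both lay below the 17 dpa level. The log2 ratios were -1.53 (-2.04 to -1.19) on day 12, -0.58 (-0.77 to -0.42) on day 17 and -1.73 (-2.04 to -1.60) on day 28. The 17 dpa value was 0.02 when each cell was named alone and 0.27 with tenocyte-like cells pooled in. Across the 56 class-by-library profiles Fgf7 and Fgf10 correlated with r = 0.80 (Pearson, log2 CPM), the highest value among the 45 pairs of members, in profiles that share libraries and depth.

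The mix of fibroblast clusters differed between libraries, so both ligands were also read within the clusters. Cluster 10 (leading genes Cyp2f2, C4b and Gdf10) held 249, 24, 574 and 562 cells in the unamputated, 12, 17 and 28 dpa libraries, cluster 16 (Wnt2, Ccn3 and Scara5) held 337, 265, 792 and 1551, and cluster 17 (Hcn4, Foxd1 and Msln) held 111, 31, 428 and 307. Fgf7 in cluster 10 was at 214 CPM unamputated, 153 on day 17 and 139 on day 28. In cluster 16 it was at 94.0, 100.2, 59.9 and 34.3 CPM in the 4 libraries, and in cluster 17 at 39.7, 32.6 and 23.8 CPM without 12 dpa. Thus the 28 dpa level of Fgf7 was below the unamputated level in all 3 clusters, past 2-fold in cluster 16 (-1.43) and under it in clusters 10 (-0.62) and 17 (-0.71), while at 12 dpa, where cluster 16 made up most of the class, that cluster showed no lower level.

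Fgf10 was unevenly spread over the same clusters. In unamputated tissue it reached 98.6 CPM in cluster 17, 58.4 in cluster 10 and 13.8 in cluster 16, and at 28 dpa these were 29.6, 31.5 and 3.78 CPM, past 2-fold in clusters 17 and 16 and under it in cluster 10 (-0.87). At 17 dpa Fgf10 was past 2-fold in cluster 17 (-1.21, at 42.0 CPM), which it was not in the class. In cluster 16 at 12 dpa it was at 10.4 CPM (37 UMIs), close to the 13.8 CPM of the unamputated library. The class-level difference of Fgf10 at 12 dpa stood beside a class in which 265 of 320 cells were cluster 16, and the part of the cluster mix in it was not tested.

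**Figure D1:**
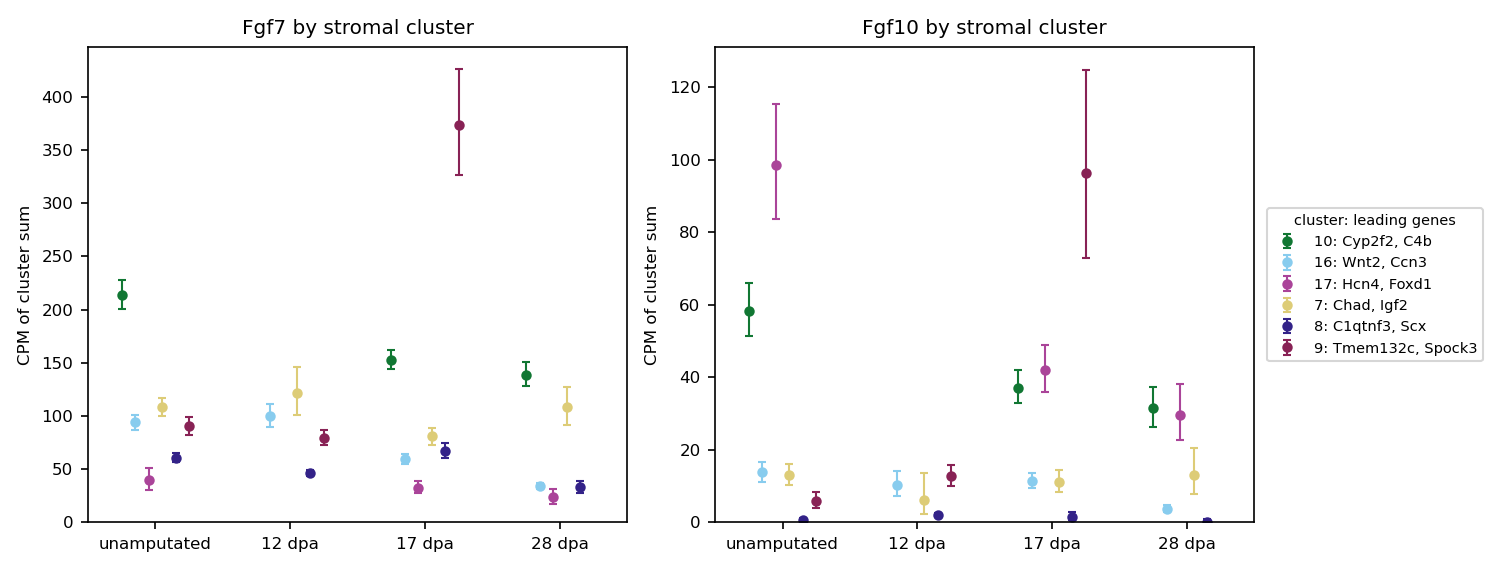
Fgf7 and Fgf10 in CPM of the cluster sum (y axis) in each library (x axis), with 1 colour per stromal cluster and exact Poisson 95% intervals. Fgf7 in cluster 16 lies at 94.0 CPM unamputated and 34.3 on day 28, and the 73 cells of cluster 9 on day 17 stand at 374 CPM for Fgf7 and 96.4 for Fgf10; clusters with fewer than 50 cells in a library have no point there.

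Outside the fibroblast-like cells, Fgf7 in osteoblast-like cells was at 111 CPM unamputated, 45.7 on day 17 and 100.1 on day 28, and in tenocyte-like cells it was at 79.4, 55.1, 90.9 and 52.4 CPM in the 4 libraries. The ranges of the 3 classes over the libraries overlapped, so their order was not separated. Mural-like cells (pericytes or smooth muscle) followed at 7.39 to 18.1 CPM, of which cluster 18 (Colec11, Id4 and Prph) was at 39.4, 45.2, 53.2 and 43.6 CPM and the pericyte cluster 15 at 1.62 to 3.60, and no library of the basal or suprabasal keratinocyte-like, vascular endothelial-like or macrophage-like cells exceeded 1.72 CPM. Fgf10 was likewise a stromal ligand. Tenocyte-like cells held 4.23 to 11.4 CPM, osteoblast-like cells 1.15 to 6.29 CPM, and basal keratinocyte-like cells at most 0.115 CPM.

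A small cluster at 17 dpa had high levels of both ligands. Cluster 9 (leading genes Tmem132c, Spock3 and Prss35) was counted as tenocyte-like from 5 detected markers, but none of its 10 leading genes is a tendon marker of the list, so it is better known by its leading genes. It was at 90.2 CPM of Fgf7 unamputated, 79.8 on day 12 and 374 on day 17, and for Fgf10 it was at 5.78, 12.7 and 96.4 CPM. The 17 dpa values rest on 73 cells, with 221 UMIs of Fgf7 and 57 of Fgf10, and the cluster had 11 cells at 28 dpa, too few for a level.

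Fgf2, a broadly acting ligand without a classical secretion signal, was highest in Schwann-like cells in every library, the glia of peripheral nerve. There it was at 103 CPM unamputated, 121 on day 12, 81.3 on day 17 and 57.0 on day 28, and no library of another class exceeded 29.1 CPM. In fibroblast-like cells Fgf2 was at 19.7 CPM unamputated, 14.4 on day 12, 26.3 on day 17 and 29.1 on day 28. The log2 ratio at 28 dpa was 0.54 (0.35 to 0.77), in the opposite direction to Fgf7 and Fgf10 in the same cells and under 2-fold. Within cluster 16 the level was 12.2 CPM unamputated and 25.3 at 28 dpa, just past 2-fold. Within cluster 10 it was 27.5 and 43.9 CPM, under 2-fold, and within cluster 17 it was 33.3 and 31.1.

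Fgf1, which can bind all FGF receptors, was found mainly in follicle and mural cells. Follicle keratinocyte-like cells were at 36.6, 20.5, 41.3 and 27.5 CPM in the unamputated, 12, 17 and 28 dpa libraries, and mural-like cells at 34.9, 19.2, 34.9 and 24.8 CPM, ranges that overlap. Within the mural-like cells, cluster 14, led by the smooth muscle genes Pln and Kcnab1, was at 64.0, 47.9, 67.9 and 46.9 CPM. Cluster 15, led by the pericyte genes Abcc9 and Kcnj8, was at 22.6, 15.4, 20.1 and 14.6 CPM, below cluster 14 in all 4 libraries. Fibroblast-like cells held 3.28 to 6.53 CPM of Fgf1 as a class, with 17.9 to 19.9 CPM in their cluster 17, and macrophage-like cells at most 0.408 CPM. B lineage-like cells had 0 UMIs of Fgf1 unamputated, 7 at 17 dpa (16.9 CPM) and 4 at 28 dpa (17.8 CPM), too few to give a ratio.

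Fgf18, a ligand known for its roles in bone and cartilage growth, and Fgf9, a ligand active in limb and joint development, were low-abundance ligands. Fgf18 in fibroblast-like cells was at 12.5, 15.9, 14.7 and 16.7 CPM, with no library past 2-fold. In tenocyte-like cells it was at 7.94 CPM unamputated, 10.0 on day 12, 26.2 on day 17 and 27.9 on day 28, which gave log2 ratios of 1.61 (1.449 to 1.999) on day 17 and 1.69 (1.496 to 2.13) on day 28. Different clusters held the high values. At 17 dpa it was cluster 7 (Chad, Igf2 and Comp) at 38.4 CPM, against 8.37 unamputated, and at 28 dpa cluster 8 (C1qtnf3, Scx and Thbs4) at 33.2 CPM, against 8.98. Cluster 8 had 4 tendon markers of the list among its 10 leading genes. Cluster 7 had 1, Comp, beside 1 of the joint or cartilage list, Chad, which was its second-best class, so its place among the tenocyte-like cells is less firm, and what is said of the class where cluster 7 leads is said of that cluster.

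Fgf9 had 63 to 185 UMIs in a whole library. In fibroblast-like cells it was at or under 5.10 CPM as a class, and its clusters did not share a direction at 28 dpa. Cluster 16 was at 1.503 CPM unamputated and 5.25 at 28 dpa (93 UMIs). Cluster 17 was at 7.68 CPM unamputated, 13.1 at 17 dpa (53 UMIs) and 6.31 at 28 dpa, and cluster 10 at 1.80, 6.11 (44 UMIs) and 0.700 CPM (3 UMIs). In tenocyte-like cells it was at 1.63, 1.61, 2.18 and 10.8 CPM in the 4 libraries, a log2 ratio of 2.17 (2.12 to 3.35) at 28 dpa. Of the 60 UMIs behind that last level, 56 came from cluster 8, where Fgf9 was at 13.6 CPM against 1.94 unamputated. Fgf9 was not limited to the stroma: vascular endothelial-like cells were at 2.01, 0.865, 1.31 and 1.33 CPM, from 35, 6, 5 and 4 UMIs, and their unamputated level overlapped the 1.63 CPM of tenocyte-like cells. Of those 35 UMIs, 28 came from cluster 11 (Selp, Sele and Ackr1), at 4.44 CPM, against 0.695 CPM in cluster 12 (Prnd and Gpihbp1). At 17 and 28 dpa cluster 11 was at 0.634 and 0.712 CPM, from 1 UMI each, and cluster 12 at 1.85 and 1.92 CPM, from 4 and 3. No library of keratinocyte-like cells exceeded 0.195 CPM.

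**Figure D2:**
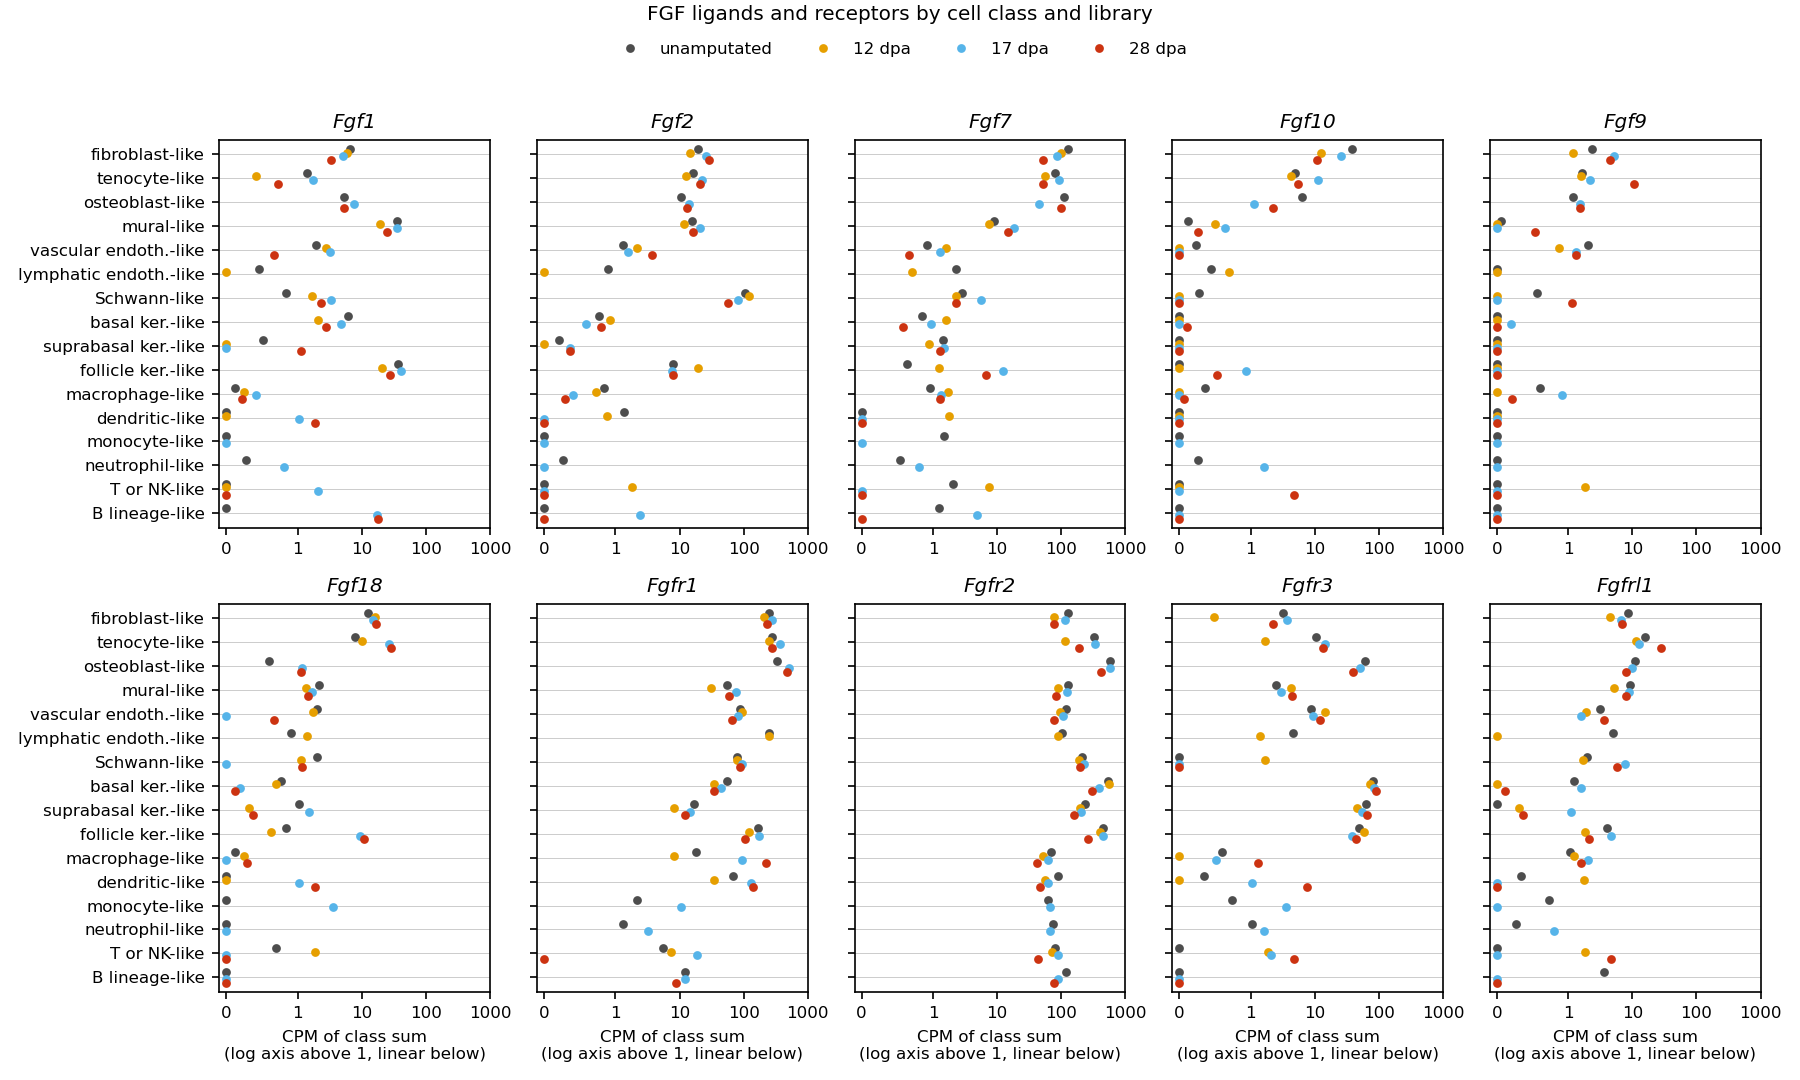
Each panel is 1 gene, with the CPM of the class sum on the x axis (logarithmic above 1 CPM, linear below) and 16 cell classes on the y axis; each point is 1 library of at least 50 cells. Fgf7 and Fgf10 lie to the right in the stromal classes, Fgf2 in Schwann-like cells, Fgfr3 in keratinocyte-like and osteoblast-like cells, and Fgfr1 in macrophage-like cells runs from 8.09 CPM on day 12 to 225 on day 28.

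Fgfr1, the main receptor of mesenchyme (chromosome 8, 25513654 to 25575718, plus strand), was high throughout the stroma. In fibroblast-like cells it was at 246 CPM unamputated, 208 on day 12, 281 on day 17 and 228.1 on day 28, with log2 ratios of -0.24, 0.19 and -0.11. Each of these changed sign under 1 alternative, of 10 at 12 dpa and 12 at 17 and 28 dpa (looser cell filters at 12 and 17 dpa, median scaling at 28 dpa). Osteoblast-like cells were highest, at 336, 508 and 466 CPM without 12 dpa, and their range overlapped that of tenocyte-like cells, 244 to 362 CPM. Lymphatic endothelial-like cells stood at 247 CPM in both libraries that had enough of them, while vascular endothelial-like cells held 65.2 to 93.3 CPM. Among mural-like cells, cluster 14 held 99.5 to 172 CPM and cluster 15 held 17.5 to 25.8, the same order as for Fgf1.

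Fgfr2, whose epithelial form receives Fgf7 and Fgf10, was high in basal keratinocyte-like cells, at 530 CPM unamputated, 562 on day 12, 393 on day 17 and 302 on day 28. The 2 later libraries were below the 2 earlier ones, without reaching 2-fold. A lower level at 28 dpa was not particular to these cells. The log2 ratio was -0.81 there, -0.78 in follicle keratinocyte-like and -0.74 in tenocyte-like cells, and -0.08 in Schwann-like cells. In macrophage-like cells, where the UMIs are not read as expression (below), it was -0.75. What lies behind the lower values across classes was not tested. Osteoblast-like cells were at 568, 577 and 423 CPM without 12 dpa, and follicle keratinocyte-like cells at 443, 399, 444 and 258 CPM. Cluster 7, led by Chad, Igf2 and Comp and counted as tenocyte-like, was at 839 CPM unamputated and at 323, 546 and 447 CPM at 12, 17 and 28 dpa. In fibroblast-like cells Fgfr2 was at 125, 76.2, 115 and 75.8 CPM, with log2 ratios of -0.71 on day 12 and -0.72 on day 28.

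Fgfr2 also had UMIs in every immune class, at 41.6 to 119 CPM, including 66.2 and 73.2 CPM in neutrophil-like cells and 75.7 to 119 in B lineage-like cells. Fibroblast-like cells, at 75.8 to 125 CPM, overlapped this range. The Fgfr2 model of GENCODE M21 spans 2960900 bases of chromosome 7 (130162451 to 133123350, minus strand) and overlaps 48 other genes of the matrices, 22 of them on the same strand, while the RefSeq gene spans 104358 bases (130162451 to 130266808). Of the 32285 gene identifiers in the matrices 32235 are in that annotation, but the annotation release and the strand and intron settings of the counting are not given in the sources used here. Whether reads of the other genes enter the Fgfr2 count was not tested. An Fgfr2 level in or near the range of the immune classes is therefore not read as expression, which includes the fibroblast-like, vascular endothelial-like and mural-like cells and the tenocyte-like cells of 12 dpa.

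Fgfr3, a receptor of epidermis and growth plate, was at 81.0, 73.6, 85.0 and 90.7 CPM in basal keratinocyte-like cells, a narrow range with no called difference. Suprabasal keratinocyte-like cells held 46.4 to 64.8 CPM, osteoblast-like cells 39.7 to 61.1 and follicle keratinocyte-like cells 38.5 to 59.6, and these 3 ranges overlapped one another and lay below that of the basal cells. Fibroblast-like cells held at most 3.64 CPM and macrophage-like cells at most 1.31.

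Fgfrl1, which binds ligand and lacks the kinase domain, was low in every class. Its highest class was tenocyte-like cells, at 15.6, 11.3, 12.8 and 28.1 CPM, and fibroblast-like cells were at 8.71, 4.57, 6.78 and 7.02 CPM. At 28 dpa cluster 8 was at 33.7 CPM against 15.1 unamputated, the same cluster in which Fgf9 and Fgf18 were highest at that time.

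In fibroblast-like cells as a whole, 8 members had enough counts on day 12, 9 on day 17 and 8 on day 28. Fgfr3 was below the minimum in all 3 comparisons and Fgf9 at 12 and 28 dpa. At 12 dpa no member was higher (1.25% of all genes tested were) and 1, Fgf10, was lower (6.72%). At 17 dpa none was higher (0.548%) or lower (1.36%), and at 28 dpa none was higher (2.26%) and 2, Fgf7 and Fgf10, were lower (6.17%). The median log2 ratio of the members was -0.39, -0.13 and -0.50 at 12, 17 and 28 dpa, beside -0.21, -0.04 and -0.14 for all genes tested. Scaling the libraries so that the median gene of at least 20 CPM had a ratio of 1 shifted the log2 values by 0.23 on day 12 and 0.13 on day 28, and the 3 calls held. The Fgf10 call at 12 dpa was lost in 3 of 10 alternatives, which were stricter cell filters, a finer clustering and cluster 16 alone, and its log2 ratio ranged from -1.64 to -0.38. The 28 dpa calls were lost with tenocyte-like cells pooled in (-0.88 for Fgf7, -0.73 for Fgf10) and in the single clusters named above, in 3 of 12 alternatives for Fgf7 and 2 of 12 for Fgf10. Members were chosen with these values known, so nothing is read from the shares.

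**Figure D3:**
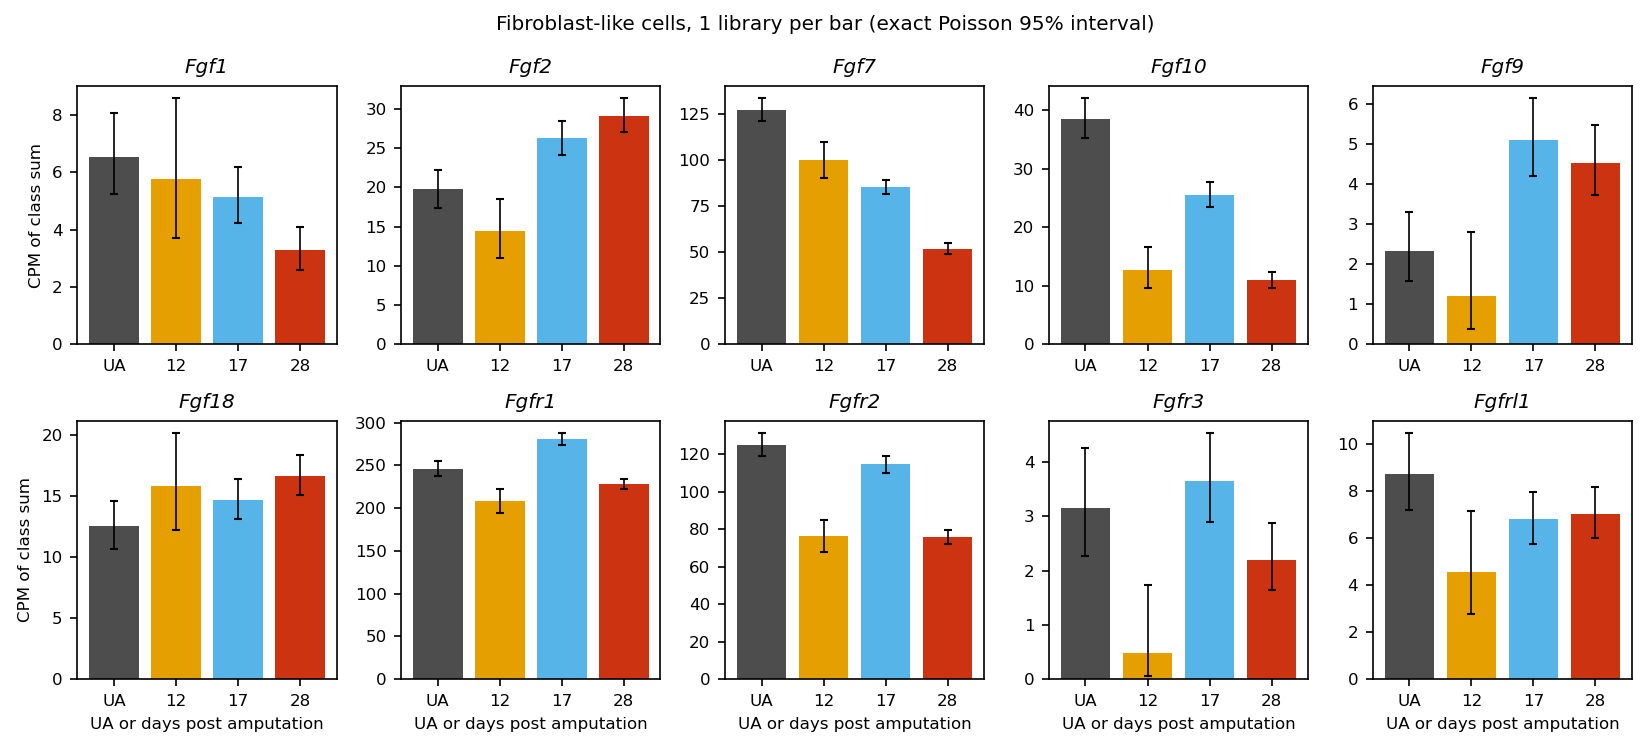
Bars show the CPM of each member in the summed fibroblast-like cells of 1 library (unamputated, UA, and 12, 17 and 28 days post amputation), with exact Poisson 95% intervals and a separate y axis from 0 for each gene. Fgf7 steps down from 128 to 52.0 CPM, Fgf10 is lowest at 12 and 28 dpa, and Fgfr1 stays between 208 and 281 CPM.

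In tenocyte-like cells other members were past 2-fold, and the difference between the classes was not tested. At 12 dpa none of 7 members was higher (0.635% of genes were) and 2 were lower (1.89%). Fgfr2 was at 323 CPM unamputated and 115 at 12 dpa, the latter within the range of the immune classes and not read as expression, so this call is one of UMIs only. Fgfr3 was at 10.5 and 1.67 CPM. At 17 dpa Fgf10 and Fgf18 were higher, 2 of 8 members (1.65%), and none was lower (1.07%), but the Fgf10 call was not one of the class at large. Of its 120 UMIs, 57 came from the 73 cells of cluster 9 and 56 from cluster 7, where Fgf10 was at 12.96 CPM unamputated and 11.2 at 17 dpa with overlapping intervals, and cluster 8 gave 7 UMIs (0.647 and 1.41 CPM). Cluster 7 was 333 of 990 cells unamputated and 494 of 824 at 17 dpa, and the part of this mix was not tested. At 28 dpa Fgf9 and Fgf18 were higher, 2 of 9 (3.68%), and none was lower (5.81%). The cluster mix moved with the 12 dpa values too. Cluster 7 gave 5113 of 7517 UMIs of Fgfr2 and 216 of 245 of Fgfr3 unamputated, but 307 of 3633 and 4 of 53 at 12 dpa, when it was 75 of 1853 cells. Within cluster 7 the 12 dpa levels were also lower, 323 against 839 CPM for Fgfr2 and 4.21 against 35.4 for Fgfr3, the latter from 4 UMIs.

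**Figure D4:**
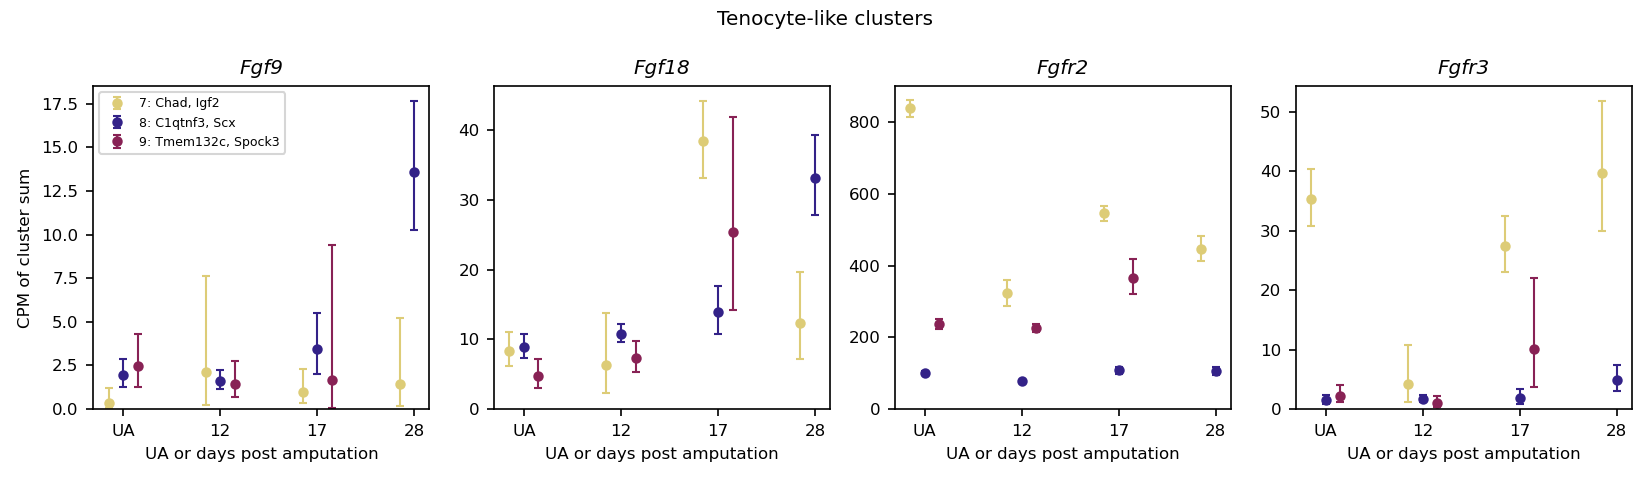
Fgf9, Fgf18, Fgfr2 and Fgfr3 in CPM of the cluster sum (y axes from 0) for the 3 tenocyte-like clusters in each library, with exact Poisson 95% intervals. Fgf9 is high in cluster 8 on day 28 (13.6 CPM), Fgf18 in cluster 7 on day 17 (38.4) and cluster 8 on day 28 (33.2), and Fgfr2 and Fgfr3 are highest in cluster 7.

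Fgfr1 in macrophage-like cells differed widely between libraries. It was at 18.1 CPM unamputated (151 UMIs), 8.09 on day 12 (33 UMIs), 94.2 on day 17 (924 UMIs) and 225 on day 28 (3088 UMIs), so that the 28 dpa level was in the range of fibroblast-like cells. The log2 ratio to the unamputated library was -1.07 (-1.75 to -0.61) on day 12, 2.32 (2.13 to 2.64) on day 17 and 3.56 (3.40 to 3.88) on day 28. With 2 members above the minimum, Fgfr1 and Fgfr2, the counts were 0 higher (1.19% of all genes) and 1 lower (2.44%) on day 12, 1 higher (2.72%) and 0 lower (1.74%) on day 17, and 1 higher (3.62%) and 0 lower (5.93%) on day 28. The 12 dpa call held in 1 of 12 alternatives, with log2 ratios from -1.07 to -0.42, the last in a cluster whose ratio is not read (cluster 1); without it they end at -0.51. The contrast was among those that selected the member, so nothing is read from these counts.

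The mix of macrophage clusters differed between the libraries. Cluster 1 (Ms4a7 and Apoe) was 532 of 726 macrophage-like cells unamputated and 82 of 1782 at 28 dpa, and cluster 19 (Ccl24, Folr2 and Gpr34, with the tissue macrophage genes Mrc1 and Cd36) was 161, 53, 640 and 1665 cells in the 4 libraries. Fgfr1 was higher in cluster 19 than in cluster 1 in every library. In cluster 19 it was at 53.8 CPM unamputated, 36.8 on day 12, 129 on day 17 and 236 on day 28, and in cluster 1 at 5.30, 3.70, 27.0 and 36.0 CPM. Within cluster 19 the 17 and 28 dpa levels were thus above the unamputated one. Its log2 ratio at 28 dpa was 2.12, smaller than in the class as a whole. Cluster 1 unamputated was at the level of T or NK-like cells (5.51 CPM). At 17 dpa it lay within the interval of T or NK-like cells in that library (8.66 to 36.0 CPM), so no ratio is read for cluster 1. At 12 dpa cluster 19 was at -0.53, under 2-fold.

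The same direction was seen in dendritic-like cells, at 68.4, 34.5, 129 and 141 CPM. T or NK-like cells had 8, 4, 9 and 0 UMIs of Fgfr1, or 5.51, 7.40, 18.9 and 0 CPM, where 0 UMIs at 28 dpa allow up to 14.2 CPM (a limit of 3 counts; the exact Poisson upper bound is 17.5). After thinning each cell to 2000 UMIs, an Fgfr1 UMI was found in 2.08% (1.17 to 3.41) of macrophage-like cells unamputated, 1.36% (0.502 to 2.94) on day 12, 12.7% (10.68 to 14.998) on day 17 and 30.1% (27.9 to 32.3) on day 28. T or NK-like cells were taken as the background, although it was not shown here that they lack the gene. In them the share was 1.13%, 2.92% and 3.03% in the first 3 libraries. At 28 dpa it was 0 of 57 cells, which allows up to 5.26% by the same limit of 3 counts (Clopper-Pearson upper bound 6.27%). Over the whole class, the unamputated and 12 dpa shares were not separated from this background, and those of 17 and 28 dpa lay above it. The clusters differed. In cluster 19 the thinned share was 6.88% (3.48 to 12.0) unamputated, above the 1.13% (0.234 to 3.27) of T or NK-like cells, and 14.8% and 32.3% at 17 and 28 dpa. Its 12 dpa share, 7.84% (2.18 to 18.9) from 4 of 51 cells, overlapped the background. In cluster 1 the shares were 0.379%, 0.273%, 4.28% and 2.53%, the last from 2 of 79 cells, and none was separated from the background. Without thinning the shares of macrophage-like cells were 9.64%, 4.49%, 36.2% and 64.1%, and the median depths of the class 10633, 8185, 8979 and 7279.5 UMIs, against 4614, 2995, 3643 and 2465 in T or NK-like cells.

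Stromal RNA moved in part with Fgfr1. The 8 fibroblast markers summed to 162, 448, 323 and 530 CPM in macrophage-like cells, none of the 8 at 0, against 40566 to 52455 CPM in fibroblast-like cells. Pdgfra, a defining fibroblast receptor, was at 0.718 to 2.47 CPM in macrophage-like cells, against 173 to 327 CPM in fibroblast-like cells. Dcn, an abundant fibroblast transcript, was at 9.22, 12.5, 34.8 and 84.1 CPM in macrophage-like cells and at 15.8, 38.9, 164 and 142 CPM in T or NK-like cells. There were 1.96, 0.647, 2.71 and 2.67 UMIs of Fgfr1 per UMI of Dcn in macrophage-like cells, and 0.0252 to 0.0442 in fibroblast-like cells. In the macrophage-like cells with no UMI of 6 stromal genes (526, 315, 441 and 396 cells in the 4 libraries), Fgfr1 was at 17.1, 8.20, 91.2 and 235 CPM, close to the levels over all cells of the class.

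**Figure D5:**
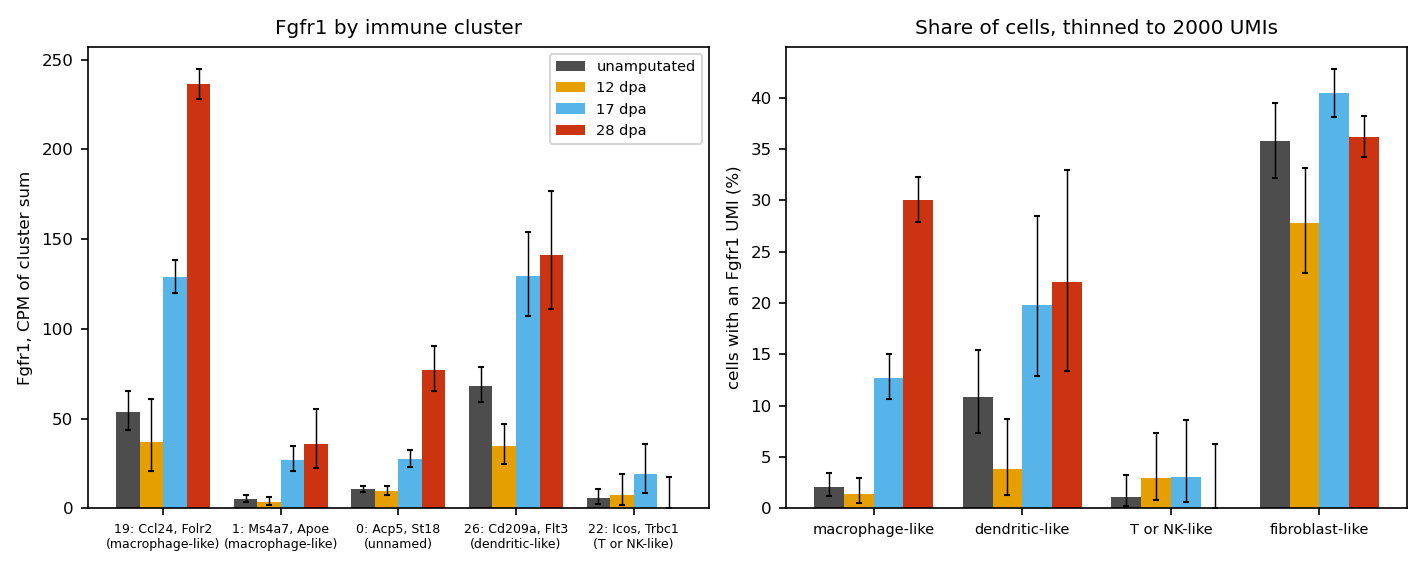
The left panel gives Fgfr1 in CPM of the cluster sum for 5 immune clusters with 1 bar per library and exact Poisson 95% intervals; the right panel gives the percentage of cells with an Fgfr1 UMI after thinning to 2000 UMIs, with exact Clopper-Pearson 95% intervals. Cluster 19 runs from 53.8 CPM unamputated to 236 on day 28, and 30.1% of macrophage-like cells on day 28 had an Fgfr1 UMI against 0 of 57 T or NK-like cells.

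Of the other 9 members, 8 were at or under 2.04 CPM in macrophage-like cells in every library, and Fgfr2 was at 70.4, 52.0, 62.3 and 41.6 CPM, within the immune range given above. The highest ligand level there was 1.72 CPM, of Fgf7 at 12 dpa, from 7 UMIs.

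The 61 other genes of the pathway list were read in the same cells. In fibroblast-like cells 37, 36 and 35 of them had enough counts at 12, 17 and 28 dpa. At 12 dpa 1 was higher and 2 lower, on day 17 none was higher and 2 lower, and on day 28 1 was higher and 1 lower, which with medians of -0.38, 0.01 and -0.36 is to be set beside the all-gene shares and medians above. Fgf12, a family member that stays inside the cell, was at 26.1 CPM unamputated, 9.92 on day 17 and 3.41 on day 28. Ccnd1, the cyclin that is a MAP kinase target, was at 18.2 CPM unamputated and 52.8 at 28 dpa. None of the 12 heparan sulphate and carrier genes tested at 28 dpa, and none of the 7 signal relay genes, was past 2-fold.

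In macrophage-like cells 28, 27 and 27 pathway genes had enough counts, with median log2 ratios of -0.28, -0.05 and -0.16 beside -0.21, 0.02 and -0.06 for all genes tested. The counts below stand beside the all-gene shares given for Fgfr1, such as 2.44% lower at 12 dpa and 3.62% higher and 5.93% lower at 28 dpa. At 12 dpa 3 were lower, all of them targets or feedback inhibitors: Etv1 was at 30.2 CPM unamputated and 12.0 at 12 dpa, Dusp6 at 71.5 and 31.9, and Spred2 at 42.3 and 19.4. At 17 dpa 2 were lower and none higher. At 28 dpa 3 were higher and 6 lower. Etv1 was then at 87.6 CPM, a log2 ratio of 1.51 (1.34 to 1.74), and Sulf2, a sulphatase that edits heparan sulphate, at 368 against 183 CPM. Sdc1, a heparan sulphate carrier, was at 7.35 against 28.7 CPM, the feedback phosphatase Dusp5 at 18.6 against 46.2, and the adaptor Gab1 at 57.3 against 131. These are values of a class whose cluster mix differed, from mostly cluster 1 unamputated to mostly cluster 19 at 28 dpa, and most of them were smaller within the clusters. At 28 dpa Etv1 in cluster 19 was at 76.8 CPM unamputated and 91.5 at 28 dpa (0.25, -0.0017 to 0.52) and in cluster 1 at 0.89 on the log2 scale, and Sulf2 was at 0.43 and 0.59, all under 2-fold. Gab1 was at -0.85 and -0.89 in clusters 19 and 1, and Sdc1 at -0.41 and 0.28. Of these 5 genes, Dusp5 alone kept its call in cluster 19 (-1.30), with 0.43 in cluster 1, where it rests on 40 UMIs at 28 dpa. At 12 dpa Etv1, Dusp6 and Spred2 were at -0.95, -1.34 and -0.996 in cluster 19, from 11 to 19 UMIs, and at -0.92, -0.94 and -0.88 in cluster 1.

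Genes with the profile most like each member were listed over the 56 class-by-library profiles among 12449 genes, as a description in which profiles share libraries and depth. Fgf7 was closest to Shc2 (r = 0.93), Cdh11 and Scarf2, and Fgf10 to Nat8f3 (r = 0.93), Hpse2 and Dpep1, of which Hpse2 and Dpep1 are among the leading genes of cluster 10. Fgf2 was closest to Nkd2 (r = 0.94), Calhm5 and Cryab, Fgf1 to Synpo2 (r = 0.83), Id4 and Sox5os4, and Fgf18 to Ltbp2 (r = 0.83), Hhipl1 and Osr1. Among the receptors, Fgfr2 was closest to Tnfrsf19 (r = 0.91), Efna5 and Lgr6, Fgfr3 to Rhbdl2 (r = 0.89), Efcab1 and Eps8l2, and Fgfrl1 to Unc5c (r = 0.84), Glis2 and Bgn. Fgfr1 was closest to Slc39a14 (r = 0.84), Maged1 and Tmed1. Fgf9 had under 20 CPM in all 56 profiles and was not compared.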

How the data were processed

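The authors deposited 1 matrix of UMI counts per library, made with Cell Ranger 7.1.0 per the file headers and aligned to mm10 per the submitters' processing notes. The annotation release and the strand and intron settings are not given in the sources used here. A cell needed 500 genes, 1000 UMIs and no more than 10% of UMIs from mitochondria, after Scrublet (in scanpy 1.11.5) had marked 7.05% to 12.8% of barcodes per library as doublets at a rate set from the number of barcodes (its own threshold would have marked 2.03% to 4.07%). Cells of all libraries were clustered together with 2000 variable genes, 30 principal components, 15 neighbours and Leiden (igraph 0.11.9), without batch correction. The clustering did not see members, pathway genes, Xist, Tsix, Y-linked or mitochondrial genes. Clusters were named by the class whose markers had the highest mean standardised level, with at least 3 markers detected; 2 clusters stayed unnamed (1 with more leading markers of another class, 1 with low UMI counts and no leading marker). UMIs were summed per class and library. Where a library had under 50 cells of a class or cluster, no level is given. Named pathway genes are those past 2-fold with at least 20 CPM, at most 4 per direction. The members, gene lists and markers were chosen with earlier results of these data known. The ratio and its interval were tested on simulated counts. Alternatives changed the filters, doublets, clustering, naming, averaging, scaling, pseudocount, minimum level and thinning; their effects are given in the closing section.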

Additional observations from a re-analysis of the deposited data

Results flagged for a closer look

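Several differences pointed in opposite directions in 2 cell classes against the unamputated library. The difference between the classes was not tested in any of them. Fgf7 at 17 dpa had a log2 ratio of 3.02 in follicle keratinocyte-like cells (12.2 against 0.631 CPM, from 13 and 3 UMIs) and of -1.27 in osteoblast-like cells (45.7 against 111 CPM). At 28 dpa Fgf7 was at 2.23 in follicle keratinocyte-like cells (6.67 CPM, 25 UMIs) and at -1.28 in fibroblast-like cells. Fgf18 in the follicle keratinocyte-like cells was at 0.842 CPM unamputated and 9.39 and 10.9 CPM at 17 and 28 dpa. The 8 fibroblast markers summed to 485, 944, 490 and 584 CPM in those cells in the 4 libraries, and their part in these values was not tested. Fgf10 at 17 dpa was at 1.06 in tenocyte-like cells (11.4 against 4.93 CPM), where cluster 9 gave 57 of the 120 UMIs and cluster 7, at 11.2 against 12.96 CPM, 56, and at -1.76 in osteoblast-like cells (1.15 against 6.29 CPM, from 6 and 32 UMIs).

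Fgfr1 also had a level in cells that the class comparisons leave out. The unnamed cluster 0 (leading genes Acp5, St18 and Clec5a), whose best-scoring class was macrophage, was at 10.5 CPM unamputated, 9.70 on day 12, 27.5 on day 17 and 77.1 on day 28, beside 5.51, 7.40 and 18.9 CPM and 0 UMIs in T or NK-like cells. After thinning to 2000 UMIs, 1.39%, 1.07%, 2.74% and 8.68% of its cells had an Fgfr1 UMI, against 1.13%, 2.92%, 3.03% and 0 of 57 T or NK-like cells, and the 28 dpa share (5.45 to 13.0) overlapped the Clopper-Pearson upper bound of 6.27% for those 57 cells. The summed level of 28 dpa was separated from that background, at 65.3 to 90.4 CPM against an upper bound of 17.5 CPM, while that of 17 dpa (23.0 to 32.5) overlapped the 8.66 to 36.0 CPM of T or NK-like cells.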

How the results depend on the processing

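No paired analysis was possible because each group is 1 library. Fgf7 and Fgf10 were lower at 28 dpa in fibroblast-like cells under all 12 alternatives, past 2-fold in 9 for Fgf7 (-1.43 to -0.62) and 10 for Fgf10 (-1.84 to -0.73). Fgf10 at 12 dpa was past 2-fold in 7 of 10 (-1.64 to -0.38). Fgfr1 in macrophage-like cells was past 2-fold in all 12 alternatives at 17 dpa (1.25 to 2.74) and 28 dpa (2.12 to 4.10), but in only 1 of 12 at 12 dpa (-1.07 to -0.42), and under 2-fold in the other 11. Cluster 1, whose unamputated level is at background and whose ratio is not read, is among the 12; without it the 17 and 28 dpa ranges are the same and that of 12 dpa ends at -0.51. The clustering with looser filters gave other values in 1 earlier computation of the same steps, so its values are less firm than the rest. The alternatives that pool classes, take single clusters or leave out cells with stromal UMIs were chosen after seeing the data.

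Members past 2-fold in fibroblast-like cells at 12 dpa numbered 1, and 0 with stricter cell filters (1000 genes, 3000 UMIs, 5% mitochondrial), with Leiden resolution 2 and in cluster 16 alone, 2 with no doublets removed and 3 with tenocyte-like cells pooled in. At 17 dpa (0 in the class) there was 1 in each of clusters 10, 16 and 17 alone, and at 28 dpa (2 in the class) there were 0 in cluster 10, 5 in cluster 16 and 1 in cluster 17. No share of all genes under the same alternative stands beside these counts or the pathway counts below, so nothing is read from them. Clusters 10 and 17 had under 50 cells at 12 dpa and gave no value there. Pathway genes past 2-fold at 12 dpa numbered 3, and 7 with stricter filters, 5 with no doublets removed, with resolution 2 and with the mean over cells, 1 with a pseudocount of 5 CPM, and 0 with a minimum of 20 CPM and in cluster 16. At 17 dpa they numbered 2, and 1 with looser (200 genes, 500 UMIs, 20% mitochondrial) or stricter filters, resolution 2, each cell named alone, a pseudocount of 5 CPM, a minimum of 20 CPM, tenocyte-like cells pooled in and cluster 16. At 28 dpa they numbered 2, and 5 with each cell named alone. The cause of these shifts was not tested.

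Fgfr1 in macrophage-like cells at 12 dpa was at -0.56 with no doublets removed, -0.53 in cluster 19, -0.42 in cluster 1 and -0.51 with cluster 0 pooled in. At 17 dpa it was at 2.74 with stricter filters, 2.10 with a pseudocount of 5 CPM and 1.25 in cluster 19. At 28 dpa it was at 4.06 with stricter filters, 4.10 with resolution 2, 3.99 with each cell named alone, 3.32 with a pseudocount of 5 CPM, 2.12 in cluster 19 and 2.55 in cluster 1. The cluster 1 ratios of Fgfr1 at 12 and 28 dpa are printed but not read, for the reason given above. Scaling by the median ratio left it at -0.83 at 12 dpa. In cluster 1 alone Sdc1 and Dusp5 at 28 dpa turned from -1.83 and -1.27 in macrophage-like cells to 0.28 and 0.43. Thinned shares at 28 dpa were 17.5% at 1000 UMIs. With 1 library per group, animal and library variation cannot be seen, and a CPM level is only as firm as the UMIs behind it, which depend on the size of the class as well as on the level: 3.78 CPM of Fgf10 in cluster 16 at 28 dpa rest on 67 UMIs, 17.8 CPM of Fgf1 in B lineage-like cells on 4.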
